A study of Mus musculus with 8 samples.

Results

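Rab small GTPases were described in the polysomal (P) and non-polysomal (NP) RNA of mouse oocytes collected at nuclear envelope breakdown (NEBD). Members were the rows of the gene table whose symbol was Rab followed by a number, with at most 1 letter and 1 further digit. The pattern matched 57 rows, 2 genes were left out by the rule, and the remaining 55 members stood among 25574 genes in all. Rab1 is the older symbol of Rab1a and Rab7l1 that of Rab29, and both are named here as in the table. Of the 55 members, 47 had a value above 0 in at least 1 library, 23 were above 0 in all 8 libraries and 45 passed the filter on low values and were tested.

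Rab proteins switch between a GTP-bound form, which sits on a membrane and recruits effectors, and a GDP-bound form, which is extracted into the cytosol. Exchange factors load GTP, GTPase-activating proteins (GAPs) return the protein to its GDP form, and prenyl groups added to the C-terminus anchor it in the membrane. Each Rab marks its own step of traffic between the endoplasmic reticulum (ER), the Golgi, endosomes, lysosomes and the plasma membrane. In fully grown oocytes this traffic includes the uptake and recycling of surface receptors, the exocytosis of cortical granules, and the movement of vesicles along the actin network that surrounds the meiotic spindle.

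All libraries came from oocytes of 8 weeks old CD1 mice primed with 5 IU of PMSG for 46 h, held as germinal vesicle oocytes in IBMX, released for 180 min of culture and given 10 min of cycloheximide at 0.1 mg/mL. Lysates of 200 oocytes were separated on sucrose gradients into 10 fractions, of which numbers 2 to 5 gave the NP and the rest from 6 onwards the P dataset. There were 4 NP and 4 P libraries. The study describes 4 independent gradient profiles, each of which was pooled into an NP and a P part, so an NP and a P library can share a lysate. No source ties the replicate numbers of NP to those of P, and the tests treat the 8 libraries as unpaired. The datasets differed only in the fractions taken. The question was which mRNAs were on polysomes and which were not. Fractions 2 to 5 also hold the monosome peak, and the paper could neither prove nor exclude heavy stored particles among the polysomes. P and NP are therefore gradient fractions and not a direct measure of translation. Each library pools the RNA of many oocytes, so fewer oocytes with an mRNA on polysomes and less of it per oocyte cannot be told apart, and FPKM values are relative to the other RNA of the same library.

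The depth of the libraries, read from the steps between FPKM values, was uneven. The number to which a library was scaled ran from 1299377 to 7594637 for NP and from 2677946 to 4699328 for P, so that 1 step on a gene of 1 kb was worth 0.132 to 0.770 FPKM in NP and 0.213 to 0.373 FPKM in P. The tissue label was checked on 10 oocyte genes, all of which were above 1 FPKM, with summed levels of 6791 to 13451 FPKM in NP and 9118 to 34374 FPKM in P. Of 13 granulosa and cumulus genes, 4 were above 1 FPKM in a library, and the sum of the 13 was 15.3 to 94.4 FPKM in NP and 2.38 to 64.0 FPKM in P. The highest of the 13 were Cyp19a1, up to 75.2 FPKM in NP replicate 4 and 62.6 FPKM in P replicate 2, and Nr5a2, up to 61.4 FPKM in NP replicate 3 and 35.9 FPKM in P replicate 3, whereas Foxl2, Amhr2, Ptx3 and Has2 were at 0 in every library. The part of these cells in the Rab levels was not tested. Of 4 blood genes, 3 were at 0 everywhere and Cd68 reached 35.9 FPKM in NP replicate 1.

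As a family, Rab mRNAs were a small share of each library. Their summed level was 1231, 1307, 1191 and 876 FPKM in NP replicates 1 to 4 and 1186, 642, 433 and 1209 FPKM in P replicates 1 to 4. In percent of all FPKM of the library the family held 0.206, 0.224, 0.273 and 0.152% in NP and 0.190, 0.146, 0.111 and 0.190% in P. P replicates 1 and 4 were within the NP range, P replicates 2 and 3 were below it, and the datasets overlapped. The number of members above 0 was 36 to 44 in NP and 29 to 41 in P.

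The levels spanned several orders of magnitude, and a few members made up most of the sum. Averaged over the 8 libraries, 7 members were above 50 FPKM, 12 between 10 and 50, 15 between 1 and 10, and 13 above 0 and up to 1 FPKM. The 5 most abundant members of a library held 50.0 to 61.6% of its Rab sum in NP and 54.0 to 77.0% in P. The leading member differed between libraries. It was Rab5c in NP replicates 1 and 2, Rab35 in NP replicate 3 and Rab5b in NP replicate 4, and Rab38, Rab3d, Rab14 and Rab27a in P replicates 1 to 4.

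**Figure D1:**
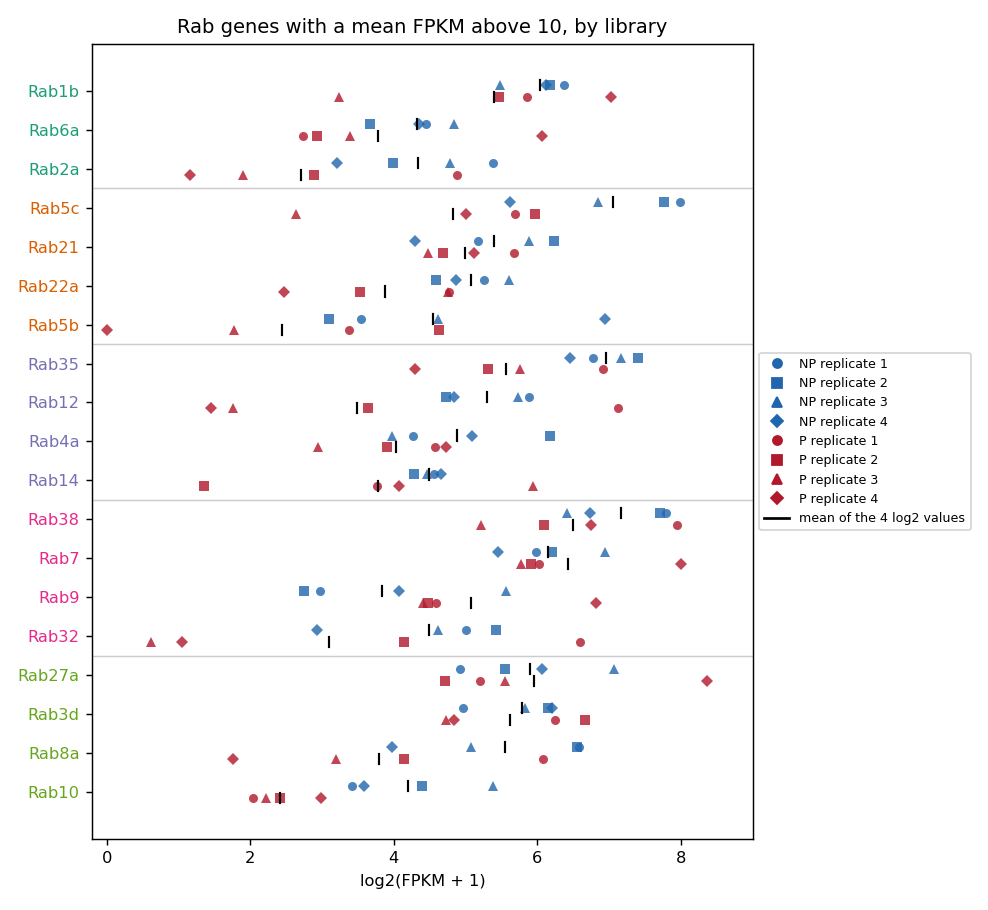
Level of the 19 Rab genes with a mean above 10 FPKM, as log2(FPKM + 1) on the x axis, with 1 row per gene. Blue points are the 4 NP libraries and red points the 4 P libraries, the shape gives the replicate number, the black ticks are means of the 4 log2 values, and label colours separate, from the top, ER and Golgi, early endosome, recycling, late endosome and exocytosis genes. The red points are spread more widely than the blue points in most rows, and Rab10 is the only row in which the colours do not overlap.

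P was compared with NP in 1 limma fit over 14292 genes, and no Rab gene passed the adjusted threshold. At an adjusted p under 0.1, 0 of 45 tested members were called, beside 3 of all genes (0.021%), and the lowest adjusted p of a member was 0.416 (limma, Benjamini-Hochberg). At an unadjusted p under 0.05, 4 members were lower in P, namely Rab5c, Rab7l1, Rab10 and Rab35, which is 8.89% of the members beside 9.47% of all genes. Rab26 was the 1 member higher in P at that level (2.22%), beside 0.476% of all genes. Neither share was tested against its background.

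Estimates below 0 were in the majority, as they were among all genes. The median log2 fold change of P over NP was −0.55 over the 45 members and −0.39 over all genes, with 33 members below 0 and 12 above it (71.4% of all genes were below 0), whereas after centring each library on its median 13 members were below 0 and 32 above, and after quantile normalization 25 were below and 20 above. Median centring moved the median of all genes from −0.39 to 0.57, so the members were also set against that median, and 25 of 45 were below it. Of the 19 members with a mean above 10 FPKM, 15 (78.9%) were below the median of all genes. Among the 5639 genes at that level the share was 54.6%. The median estimate was −0.84 for the 19 members and −0.49 for those genes. This cut is on the mean over the 8 libraries, so a gene can pass through 1 dataset. Rab10, Rab5b and Rab2a exceeded 10 FPKM in their NP mean only, and their estimates were below the median of all genes. Rab2b, with an estimate of 1.28, was left out at a mean of 7.75 FPKM. The 5639 genes were cut in the same way, and the difference between the shares was not tested.

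Precision was limited by the spread between libraries. The 95% interval of the log2 fold change included 0 for 40 of 45 members, and among the 19 most abundant members it was 2.73 to 5.07 log2 units wide. A mean more than 2-fold higher in NP was seen for 17 members (37.8%, beside 40.6% of all genes) and more than 2-fold higher in P for 8 (17.8%, beside 16.9%).

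**Figure D2:**
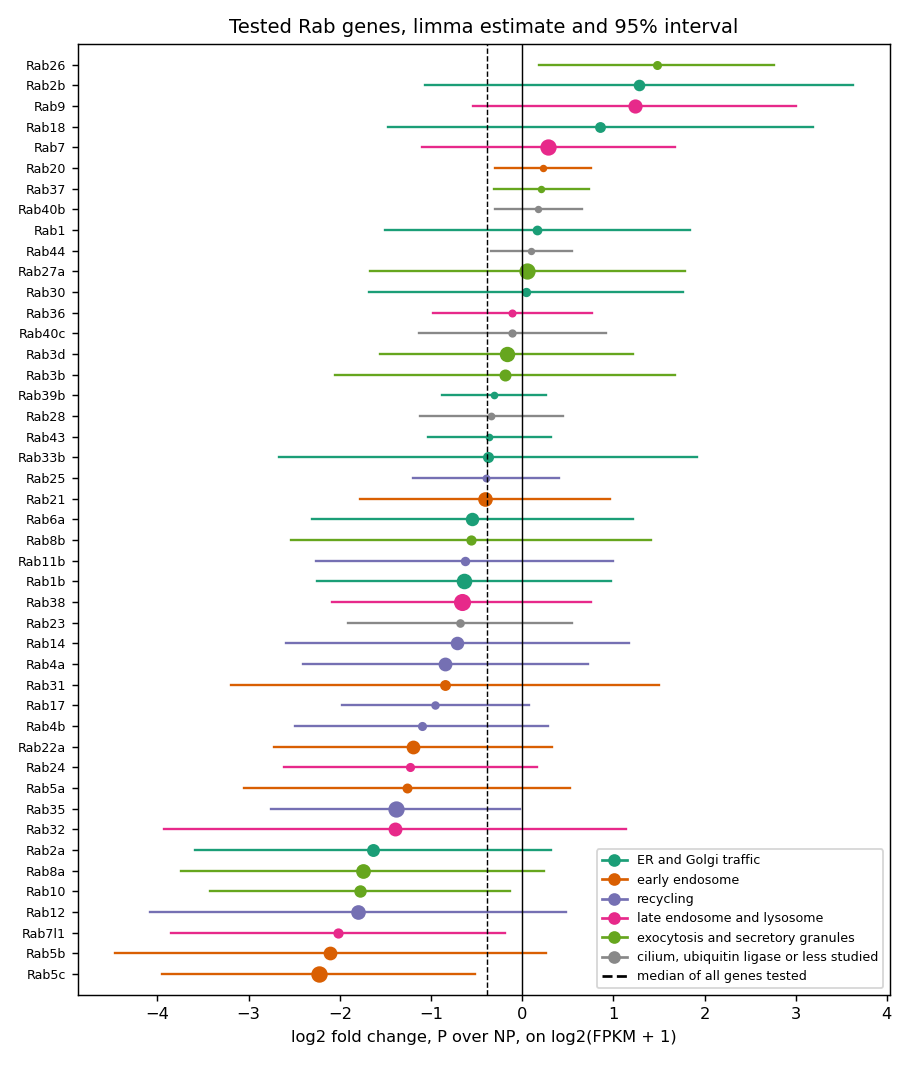
Log2 fold change of P over NP for the 45 tested Rab genes, on log2(FPKM + 1), sorted by estimate. Points are limma estimates, larger for genes with a higher mean FPKM, lines are 95% intervals, colours give the role, and the dashed line is the median of all genes (−0.39). Most intervals include 0, and centring each library on its median would move all points to the right by the same amount, leaving 13 of them below 0.

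Of the early endosome, the entry station of endocytosed cargo, 7 members were measured, and this group took a smaller share of the Rab sum in each P library than in any NP library. Its share was 28.7, 25.0, 21.7 and 25.3% in NP replicates 1 to 4 and 11.8, 19.7, 15.2 and 5.85% in P replicates 1 to 4, a mean of 25.2% ± 2.85 (SD, n = 4) against 13.1% ± 5.82 (SD, n = 4). It was the only 1 of 6 role groups whose shares did not overlap. The share is a ratio within a library and does not depend on scaling, but a group that is chosen among 6 after the values are known supports no test. Without Rab5c the shares overlapped, at 10.1 to 21.0% in NP and 3.37 to 14.2% in P. In NP replicate 4, Rab5b alone held 13.9% of the Rab sum, out of the 25.3% of the group. Estimates were below the median of all genes for 6 of 7 members, and the exception was Rab20, a low gene of early endosomes and phagosomes.

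Rab5c, 1 of 3 Rab5 genes whose products drive the fusion of early endosomes, had the lowest estimate of all members. The gene lies on chr11:100715009-100738215 of GRCm38. It measured 253, 217, 114 and 47.9 FPKM in NP replicates 1 to 4 and 50.4, 61.6, 5.23 and 31.0 FPKM in P replicates 1 to 4. Only NP replicate 4 fell among the P values, and P replicate 3 was far below the others. In each equally numbered pair the P value was the lower, but no source ties these numbers to 1 gradient. The same held for Rab8a, Rab2a, Rab22a and Rab10 and, at lower levels, for Rab31, Rab4b and Rab17, but not for Rab5b or Rab35. How many of all genes have this pattern was not counted, and 71.4% of all genes had an estimate below 0. With 4 pairs no sign-flip test can pass 0.05. The log2 fold change was −2.23 (SE 0.80, 95% interval −3.95 to −0.51, limma adjusted p 0.416), and the exact permutation test over 70 assignments gave 0.0857, 2-sided. The smallest p that 4 against 4 libraries allow is 0.0286.

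Rab5b (chr10:128677193-128696268) was uneven within both datasets. It measured 10.7, 7.54, 23.5 and 122 FPKM in NP and 9.41, 23.8, 2.42 and 0 FPKM in P. NP replicate 4 was several times higher than any other library and P replicate 4 was at 0, although NP replicate 4 was the lowest NP library for Rab5c. The estimate was −2.10 (SE 1.10, limma adjusted p 0.533). Over 648 bases Rab5b is 99.4% identical to the pseudogene Gm13991, so its count is uncertain. Rab5a stayed low, between 2.92 and 4.90 FPKM in NP and between 0 and 5.43 FPKM in P.

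The 3 Rab5 genes together held 12.0 to 21.7% of the Rab sum in NP and 1.76 to 14.1% in P. The other early endosome genes, Rab21, which acts in integrin traffic, Rab22a, Rab31 and Rab20, held 6.79 to 11.1% of the remaining sum in NP and 3.24 to 13.7% in P. Rab21 was between 18.7 and 73.9 FPKM in NP and between 21.3 and 49.8 FPKM in P, and Rab22a between 23.1 and 47.5 FPKM in NP and between 4.56 and 26.4 FPKM in P. Both overlapped between the datasets.

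**Figure D3:**
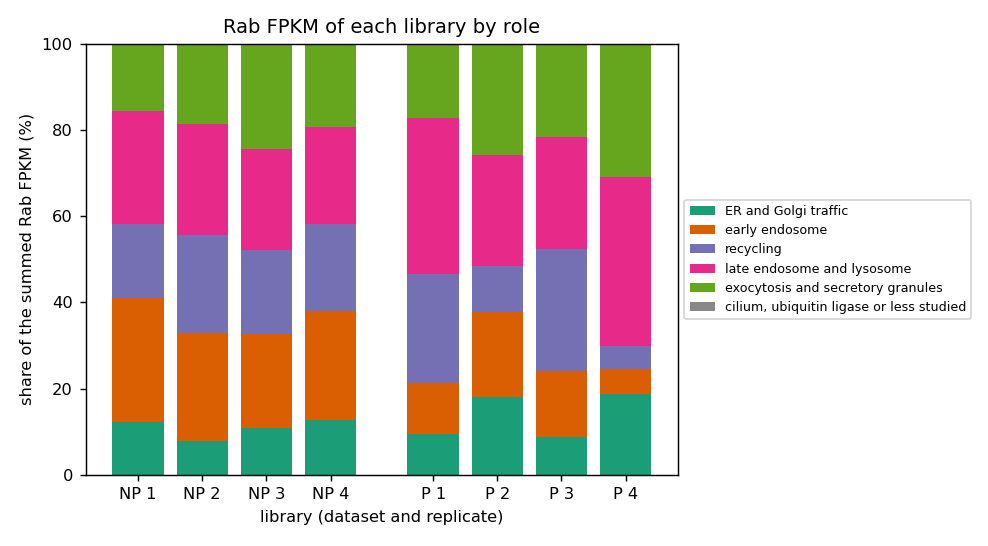
Share of the summed Rab FPKM held by each role group, in percent on the y axis, in the 4 NP and 4 P libraries. Each bar is 1 library and sums to 100%. The early endosome part (orange) spans 21.7 to 28.7% in NP and 5.85 to 19.7% in P, while the parts of the other groups overlap.

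Recycling Rabs, which return receptors and membrane from endosomes to the surface, gave no call, but their estimates were on the low side. All 8 tested members were below 0 (71.4% of all genes were) and below the median of all genes. After quantile normalization 7 of 8 were below 0 and after median centring 3 of 8, with 7 and 8 below the median of all genes. Without P replicate 2, and likewise without P replicate 3, 6 of 8 were below that median, and with voom on recovered steps 4 of 5. The group was looked at among 6 with the values known, so these counts support no test. The median of the group was −0.90. Their share of the Rab sum was 17.4 to 22.8% in NP and 5.15 to 28.4% in P, and P libraries lay both above and below the NP range.

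Rab35 (chr5:115631929-115647736), a Rab of fast recycling and of cytokinesis, was among the most abundant members. Its level was 109, 169, 142 and 86.8 FPKM in NP and 119, 38.7, 53.1 and 18.5 FPKM in P. P replicate 1 lay within the NP range, and the other 3 P libraries were below all NP libraries. Its log2 fold change was −1.39 (SE 0.64, 95% interval −2.75 to −0.02, limma adjusted p 0.495), and the exact permutation p was 0.0857.

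Rab12 (chr17:66494512-66519717), which sends recycling cargo to lysosomes, had its highest and its lowest values in the same dataset. It measured 57.9, 25.5, 52.0 and 27.7 FPKM in NP and 139, 11.5, 2.38 and 1.73 FPKM in P. P replicate 1 was above every NP library and the other 3 P libraries were below all of them. The estimate of −1.80 (SE 1.06, limma adjusted p 0.568) stood beside nearly equal mean levels of 40.8 and 38.5 FPKM. Without P replicate 1 the P mean was 0.127 of the NP mean, and with it 0.946.

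Rab4a, another fast-recycling Rab, was between 14.8 and 71.4 FPKM in NP and between 6.66 and 25.5 FPKM in P. Rab14, of Golgi-to-endosome traffic, had the lowest coefficient of variation (CV) in NP of the 19 members with a mean above 10 FPKM, at 11.6% (18.4 to 24.3 FPKM), beside 115% in P (1.55 to 60.4 FPKM). Rab11b, Rab4b, Rab17 and Rab25 had means of 0.365 to 2.0 FPKM over the 8 libraries.

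Late endosomal and lysosomal Rabs held 22.5 to 26.1% of the Rab sum in NP and 25.8 to 39.3% in P, and these ranges overlapped only between 25.8 and 26.1%. Of 7 tested members, 4 were below the median of all genes and 3 above it, so the group did not share a direction.

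Rab38 (chr7:88430273-88491466), which with Rab32 serves lysosome-related organelles such as melanosomes, had the highest mean over the 8 libraries, 134 FPKM, ahead of Rab5c at 97.5 and Rab35 at 92.0 FPKM. It measured 220.2, 208, 84.5 and 106 FPKM in NP and 246, 67.4, 36.1 and 107 FPKM in P. The highest and the lowest of the 8 values were both in P. The log2 fold change was −0.66 (SE 0.66, 95% interval −2.08 to 0.76, limma adjusted p 0.697), and after median centring it was 0.30.

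Rab7 (chr6:87999106-88045270), the Rab of late endosome maturation and lysosome fusion, was 62.4, 72.5, 121 and 42.6 FPKM in NP and 63.8, 59.4, 53.9 and 256 FPKM in P. The first 3 P libraries were close to each other and inside the NP range, and P replicate 4 was above all others. The P mean was 1.45 times the NP mean with P replicate 4 and 0.790 of it without that library. The estimate was 0.29 (SE 0.65, limma adjusted p 0.855) and −0.24 without P replicate 4. Rab7 is 98.4% identical over 622 bases to the pseudogene Rab7-ps1, so its count is uncertain.

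Rab9 (chrX:166457253-166479867), which retrieves mannose 6-phosphate receptors from late endosomes to the Golgi, measured 6.81, 5.72, 46.2 and 15.9 FPKM in NP and 23.0, 21.2, 20.2 and 112 FPKM in P. All 4 P libraries were above 3 of the 4 NP libraries, and NP replicate 3 was above 3 of the P libraries. Its estimate was 1.23 (SE 0.82, 95% interval −0.54 to 3.00, limma adjusted p 0.616, exact permutation p 0.20). The ratio of the means was 2.36 in all libraries and 1.15 without P replicate 4.

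Rab7l1 (chr1:131867224-131872887), which acts on the trans-Golgi network and stressed lysosomes, was detected in 3 NP libraries and hardly in P. It measured 0, 8.55, 1.53 and 17.3 FPKM in NP and 0.631, 0, 0 and 0 FPKM in P. The estimate was −2.02 (SE 0.85, limma adjusted p 0.470, exact permutation p 0.143), and NP replicate 1 at 0 kept the datasets overlapping. Rab32 was between 6.62 and 42.0 FPKM in NP and between 0.534 and 95.2 FPKM in P, with its highest value in P replicate 1.

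Rabs of exocytosis and secretory granules, which bring vesicles to the plasma membrane, held 15.4 to 23.8% of the Rab sum in NP and 16.7 to 30.9% in P. This group contained the only member whose datasets did not overlap.

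Rab10 (chr12:3247430-3309969), which carries vesicles to the plasma membrane and acts on ER tubules, was lower in every P library than in any NP library. It measured 9.73, 19.9, 40.5 and 10.95 FPKM in NP and 3.09, 4.35, 3.65 and 6.91 FPKM in P, a mean of 20.3 ± 14.2 (SD, n = 4) against 4.50 ± 1.69 FPKM (SD, n = 4). It was the 1 of 45 tested members (2.22%) with all NP libraries above all P libraries, beside 5.92% of all genes, and 0 members had all P libraries above all NP libraries, beside 0.357%. The log2 fold change was −1.78 (SE 0.77, 95% interval −3.42 to −0.13, limma adjusted p 0.478), and the exact permutation p of 0.0286 was the smallest possible. The datasets overlapped after quantile normalization, after median centring and for the share of the Rab sum.

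Rab27a (chr9:73044865-73097592), which docks secretory granules at the plasma membrane, was 29.3, 45.6, 133 and 66.2 FPKM in NP and 35.6, 25.3, 45.7 and 328 FPKM in P. P replicate 4 alone held 27.1% of its Rab sum in this gene, and the other P libraries were within the NP range or below it. The estimate was 0.05 (SE 0.81, limma adjusted p 0.978), and it was −0.75 without P replicate 4, −0.27 without NP replicate 1 and −0.06 without NP replicate 2.

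Rab3d (chr9:21907491-21918192), a Rab of regulated granule release, had nearly equal means of 57.1 ± 19.5 FPKM in NP and 57.0 ± 36.7 FPKM in P (SD, n = 4). The libraries measured 30.1, 69.7, 55.9 and 72.9 FPKM in NP and 74.5, 100.3, 25.5 and 27.5 FPKM in P. P replicates 1 and 2 were above every NP library, and P replicates 3 and 4 were below all of them. P over NP gave a log2 fold change of −0.17 (SE 0.65, 95% interval −1.56 to 1.22, limma adjusted p 0.917), and its sign turned under several settings, among them the removal of P replicate 3 (0.13) or P replicate 4 (0.09).

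Rab26 (chr17:24527241-24534210), linked to secretory granules and to autophagy of synaptic vesicles, was near the detection limit in NP. It measured 0.220, 0, 0.145 and 0.0923 FPKM in NP and 1.94, 0, 5.28 and 3.93 FPKM in P. P replicates 1, 3 and 4 were above all NP libraries, and P replicate 2 was at 0. The log2 fold change was the highest of the members, at 1.47 (SE 0.60, 95% interval 0.19 to 2.76, limma adjusted p 0.455, exact permutation p 0.143). Rab8a, which acts in exocytosis and cilium growth, was between 14.7 and 94.6 FPKM in NP and between 2.39 and 66.6 FPKM in P.

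ER and Golgi Rabs held 7.80 to 12.7% of the Rab sum in NP and 8.88 to 18.8% in P. Of 10 tested members, 3 were below the median of all genes, and the median of the group was −0.34.

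Rab1b (chr19:5099207-5106996), which tethers ER-derived vesicles at the Golgi, was the most abundant of them. It measured 81.8, 71.3, 43.4 and 68.7 FPKM in NP and 56.8, 43.0, 8.46 and 129 FPKM in P. P replicates 3 and 4 gave the lowest and the highest of the 8 values. The log2 fold change was −0.64 (SE 0.75, limma adjusted p 0.732), and it was 0.32 after median centring and 0.08 without P replicate 3.

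Rab2b (chr14:52261759-52279545), of Golgi membranes, was below 2 FPKM in 7 libraries. It measured 0.677, 0.185, 1.32 and 0 FPKM in NP and 1.58, 58.2, 0.0540 and 0 FPKM in P. The value of P replicate 2 decided the estimate of 1.28 (SE 1.09, limma adjusted p 0.663), which was −0.07 without it. Of the merged exons of Rab2b, 59.3% overlap the predicted gene Gm43766, and the library kit does not mark strand.

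Rab18, which sits on the ER and on lipid droplets, measured 0.555, 0, 4.38 and 3.79 FPKM in NP and 0.754, 0, 9.97 and 21.5 FPKM in P. P replicates 3 and 4 were above all NP libraries and P replicate 2 was at 0, as was NP replicate 2. The estimate was 0.86 (SE 1.09, limma adjusted p 0.749). Rab6a, of retrograde Golgi traffic, was between 11.8 and 27.5 FPKM in NP and between 5.65 and 66.01 FPKM in P, and Rab2a between 8.27 and 40.8 FPKM in NP and between 1.23 and 28.3 FPKM in P.

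The remaining 5 tested members, Rab23 of ciliary signalling, the ubiquitin ligase adaptors Rab40b and Rab40c, Rab28 and Rab44, together held at most 0.517% of the Rab sum in any library. Rab34 and Rab27b were above 0 but below the filter and were not tested. Rab13, Rab19, Rab39, Rab6b, Rab15, Rab3c, Rab33a and Rab9b were at 0 in every library. A count of 3 steps would have stood for 0.0328 to 1.99 FPKM for these 8 genes, so levels below that were not detectable at this depth. These limits cover counting error only, because cDNA was amplified without molecular identifiers.

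The spread between libraries was larger in P than in NP. Among the 19 members with a mean above 10 FPKM the median CV was 52.4% in NP and 91.0% in P, with a higher CV in P for 15 of 19, beside 56.4 and 81.0% over all genes at that level. Counting error alone, from the mean recovered steps of a dataset, would give 2.51 to 13.4%, and more in a library with few steps. Steps count amplified cDNA without molecular identifiers, so the sampling of mRNA molecules is not covered by these values. Of 45 tested members, 21 (46.7%) had over 75% of their summed P level in a single P library, beside 31.2% of all genes, and 6 (13.3%) had over 75% of their NP level in a single NP library, beside 20.4%. Among the 19 members above 10 FPKM these counts were 4 (21.1%) in P and 0 in NP. The shares of all genes at that level were 13.9% and 3.71%. P replicate 1 was the highest P library for 21 members (46.7%, beside 29.97% of all genes), P replicate 2 for 9, P replicate 3 for 6 and P replicate 4 for 8. Without P replicate 1, 7 of 41 members (17.1%) had all NP libraries above all P libraries, beside 11.4% of all genes, where a smaller P group separates more easily. These were Rab2a, Rab10, Rab11b, Rab12, Rab23, Rab35 and Rab39b, and none was called.

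**Figure D4:**
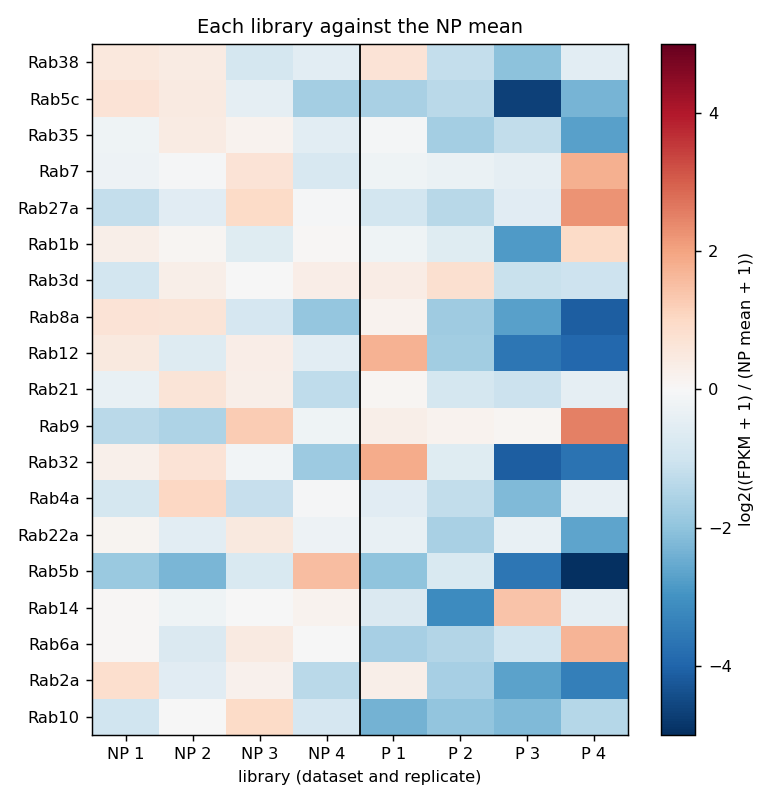
Each library against the NP mean for the 19 Rab genes with a mean above 10 FPKM, as log2 of (FPKM + 1) over (NP mean + 1), with genes in rows by mean level and libraries in columns. Red is above and blue below the NP mean. P replicate 1 is blue for Rab5c and Rab10 but red for Rab12 and Rab32, whereas P replicate 4 is red for Rab7, Rab27a and Rab9 and blue for Rab8a and Rab12, so the P columns differ from each other.

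Close paralogues were compared by their ratio of FPKM + 1 within each library. This ratio depends little on scaling between libraries, except where a gene is near or below 1 FPKM. Of 21 listed pairs, 10 had both genes above a mean of 1 FPKM, and the preferred paralogue was mostly the same in both datasets. Rab1b was above Rab1, Rab3d above Rab3b, Rab4a above Rab4b, Rab5c above Rab5a, Rab8a above Rab8b, Rab22a above Rab31 and Rab38 above Rab32 in all 8 libraries. Rab5c was above Rab5b in 7 of 8 libraries, the exception being NP replicate 4.

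None of the 10 pairs had a different ratio in P and NP at an exact p under 0.05. The nearest was Rab2a over Rab2b, with a log2 ratio of 4.64, 3.74, 3.57 and 3.21 in NP and 3.505, −2.99, 1.83 and 1.15 in P. The NP mean of 3.79 ± 0.61 and the P mean of 0.87 ± 2.76 (SD, n = 4 each) gave a difference of −2.92 (exact permutation p 0.0571, Benjamini-Hochberg over 10 pairs 0.571). The order was turned round in P replicate 2 only, the library in which Rab2b reached 58.2 FPKM. As Rab2b was between 0 and 1.32 FPKM in NP, its NP ratios depend on the added 1 FPKM. For Rab8a over Rab8b the difference was −1.19 (exact permutation p 0.229), and for Rab5a over Rab5c it was 0.96 (exact permutation p 0.286).

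**Figure D5:**
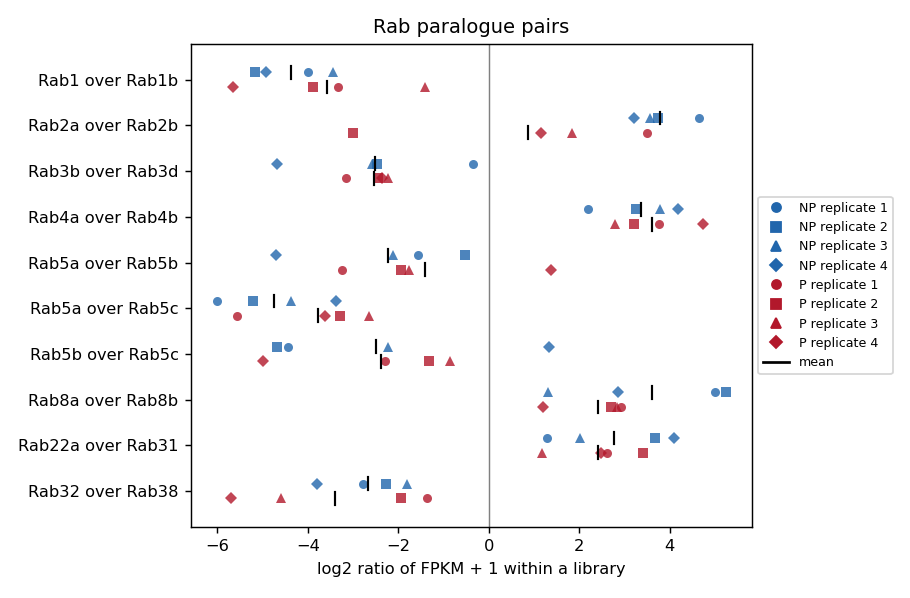
Log2 ratio of FPKM + 1 between 10 pairs of Rab paralogues within each library. Blue points are NP and red points P libraries, shapes give the replicate number and black ticks the means. Points of 7 pairs stay on 1 side of 0 in all 8 libraries, and Rab2a over Rab2b crosses 0 only in P replicate 2 (−2.99).

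Regulators of Rab proteins were likewise not called. Of 133 listed genes, 125 were in the table, in 126 rows since Mical3 has 2, and the counts that follow are of the 115 rows tested, and 0 were called by limma at an adjusted p under 0.1. Their median log2 fold change was −0.35, and 55 of 115 were below the median of all genes. At an unadjusted p under 0.05, 14 were lower in P (12.2%, beside 9.47% of all genes) and 0 were higher, and 11 (9.57%, beside 5.92%) had all NP libraries above all P libraries. These were 5 of 43 exchange factors (Trappc4, Hps4, Mon1b, Sbf2 and Rin2), 3 of 32 GAPs (Tbc1d22b, Tbc1d9b and Tbc1d5), 3 of 33 effectors (Rabepk, the row of Mical3 with the lower level and Rilpl1) and 0 of 7 genes of prenylation and membrane extraction, and all but Tbc1d22b were named after their values had been seen.

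Tbc1d22b, which carries the TBC domain of Rab GAPs, was the only non-overlapping regulator with a mean above 50 FPKM. It measured 215, 319, 338 and 247 FPKM in NP and 75.6, 146, 118 and 175 FPKM in P. Every NP library was above every P library, and no library stood far from its dataset. Its log2 fold change was −1.16 (SE 0.52, limma adjusted p 0.493, exact permutation p 0.0286).

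Gdi2, which extracts GDP-bound Rabs from membranes, was the most abundant gene of its group, at 143, 145, 322 and 85.8 FPKM in NP and 132, 60.4, 63.0 and 29.4 FPKM in P. P replicate 1 lay inside the NP range and the other 3 P libraries were below it (log2 fold change −1.30, SE 0.63, limma adjusted p 0.513). Rabac1, which releases Rabs from that inhibitor, averaged 38.9 ± 21.6 FPKM in NP and 44.8 ± 62.2 FPKM in P (SD, n = 4). Rabggta, a subunit of the transferase that prenylates Rabs, averaged 40.2 ± 29.9 FPKM in NP and 26.6 ± 35.3 FPKM in P (same n), and Rabif, a chaperone of Rabs without nucleotide, 11.9 ± 6.65 FPKM in NP and 22.6 ± 27.8 FPKM in P.

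The 3′ ends of the transcripts were read, since some oocyte mRNAs carry cytoplasmic polyadenylation elements (CPEs) there, short U-rich motifs bound by CPEB. The letters TTTTAT and TTTTAAT were searched on the sense strand of the last 100 bases of 1 GENCODE transcript per gene, and the poly(A) signals AATAAA and ATTAAA in the last 40 bases. Motifs were counted separately and may share bases. A CPE motif was found in 7 of 45 tested members (15.6%), beside 19.4% of 11993 genes, a poly(A) signal in 34 (75.6%), beside 76.9%, and both in 6 (13.3%), beside 15.6%. A match is a description of the letters and not a shown binding site.

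The 7 members with the motif were Rab6a, Rab20, Rab8b, Rab2b, Rab5a, Rab18 and Rab9. Their median log2 fold change was 0.23, with 4 of 7 above 0, and that of the 38 members without it was −0.64, with 8 above 0 (21.1%). The 0.23 was the estimate of Rab20, which was at 0 in 7 of 8 libraries. The estimate of Rab2b, also above 0, was −0.07 without P replicate 2. Over all genes the medians were −0.38 with the motif and −0.40 without it, with 31.3 and 28.1% above 0. The scan was added after the values were known and carries no test. Windows of 30 bases around the last motif (in capitals) of 4 of these members are given here, 5′ to 3′, from GRCm38, because they include the genes with the highest estimates of the set, Rab2b and Rab9, and for comparison Rab6a and Rab5a, whose estimates were below 0. Rab6a is read from chr7:100641207-100641236 (plus strand), Rab5a from chr17:53507622-53507651 (plus strand), Rab2b from chr14:52261798-52261827 (minus strand) and Rab9 from chrX:166457322-166457351 (minus strand).
Rab2b: aaattttctaatTTTTATtgttaatgaccg
Rab9: atatgtgtatatTTTTATgtaattagcatt
Rab6a: ttgactcttttgTTTTATtttgacatggca
Rab5a: accggtgtttagTTTTATattgaggtgctc
All 4 carry the same 6 letters. The estimates were 1.28 for Rab2b, 1.23 for Rab9, −0.55 for Rab6a and −1.27 for Rab5a. The motif ended 51 bases before the annotated transcript end in Rab2b, 81 in Rab9, 44 in Rab6a and 41 in Rab5a.

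Some Rab counts share sequence with other genes. Of 47 members above 0, 16 share at least 150 bases at 98% identity or more with another annotated gene, and the exons of 4 members are overlapped by more than 50% by another gene. These are Rab43 with Gm45140 (75.4%), Rab4b with Gm21983 (65%), Rab24 with Prelid1 (62.4%) and Rab2b with Gm43766 (59.3%). Rab11b is 99.8% identical to Rab11b-ps2 over 654 bases. Of the exons of Rab6a, 19% are overlapped by Mrpl48, which was at 46.7 to 136 FPKM in NP and 17.7 to 58.1 FPKM in P. Their levels are therefore uncertain, and no source used here says how the counting treated strand.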

How the data were processed

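RNA of 4 NP and 4 P libraries was depleted of rRNA, reverse transcribed with random and oligo-dT primers, amplified and sequenced as paired reads of 150 bp, and groups were taken from the sample titles. Reads were trimmed by the authors with Trim Galore 0.4.1, mapped to GRCm38 with HISAT2 2.0.5 and quantified in Seqmonk, and the deposited table holds, for each library, linear FPKM values that the authors scaled by gene length and depth. The authors' tables of pooled means, ratios and DESeq2 results were not used. FPKM values are whole multiples of a step per gene and library. Steps were recovered for 15584 of 15585 genes above 0, for 7489 of them with the annotated length. For 8095 the shortest fitting length from 100 to 30000 bases was taken, so their steps can be too few. They served for depth, counting error and 1 alternative. The intervals of the fold changes were built from the limma SE, which rests on the spread between libraries and not on counting error alone.

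P was tested against NP (limma 3.58.1 under R 4.3.3, lmFit and trended eBayes, 2-sided) on log2(FPKM + 1), a scale that understates the change of low genes. Genes entered the fit if their NP or their P mean exceeded 0.1 FPKM, p-values were adjusted over all of them (Benjamini-Hochberg), and the threshold was 0.1. For single values and paralogue ratios, all 70 assignments of the libraries were enumerated in an exact permutation test. Scripts were tested on simulated data. For the limma fit the spread of the noisier genes was capped there, so its power in these data was not tested. P-values set the difference between P and NP against the spread of these libraries within a dataset. They treat the 8 libraries as independent, although NP and P libraries share lysates. The alternatives were another pseudocount, filter, scaling or variance prior, a replicate block, a voom fit of recovered steps, and each library left out.

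The members and the lists of roles, pairs, regulators and markers were chosen with earlier results of these data known. Values were given in full for members with a mean above 50 FPKM over the 8 libraries, members without overlap, and the 5 largest estimates in each direction, which made 15 genes. The pairs were named by ratio, the other members by range or count, and of the regulators the 4 most abundant of prenylation and extraction and those called or without overlap above 50 FPKM. Transcript ends were read from GENCODE M21 (GRCm38), and stretches were compared with blastn 2.17.0. Numpy 2.4.6, pandas 2.3.3, scipy 1.17.1 and matplotlib 3.10.9 in Python 3.11.15 were used.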

Additional observations from a re-analysis of the deposited data

Results flagged for a closer look

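Of 54 sets of 4 library values, those of the named members, the paralogue pairs and the Rab sum and share, 8 held a library that stood apart from the other 3 by Dixon's criterion. Chance gives about 1 such set in 20 for normally distributed values, but 8.69% of NP sets and 14.8% of P sets were past it over all genes with a mean above 50 FPKM, and 22.8 and 34.1% over all tested genes. In P replicate 4, which had the fewest members above 0 (29), Rab7 (255.8 FPKM), Rab27a (327.5 FPKM) and Rab9 (111.7 FPKM) were far above the other P libraries. In P replicate 1 the same held for Rab12 (138.6 FPKM) and, at a low level, for Rab7l1 (0.631 FPKM, the other 3 at 0). Rab2b was apart in P replicate 2 (58.2 FPKM) and Rab5b in NP replicate 4 (122.1 FPKM). The log2 ratio of Rab8a to Rab8b was apart in P replicate 4, at 1.21 (2.70 to 2.93 in the other P libraries). Over all genes, 31.2% had over 75% of their P level in a single P library. The cause was not tested.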

How the results depend on the processing

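No Rab member and no regulator was called in any alternative run. Over all genes, 3 were called in the fit described, 5 with a pseudocount of 0.1, 5 with a filter at 1 FPKM, 20 without the variance trend, 0 without a filter, with quantile normalization, with median centring and with voom on recovered steps, and 0 to 5 with a library left out. Unadjusted p under 0.05 was reached by 820 to 2896 genes. Members without overlap, 1 in the fit described, numbered 5 with quantile normalization (Rab1, Rab20, Rab37, Rab40b and Rab44, P above NP, 11.1% beside 4.62% of all genes), 8 with median centring (P above NP, 17.8% beside 12.1%), 0 as shares of the Rab sum, an alternative chosen after seeing the data, and 2 to 7 with a library left out, where 7.9 to 11.4% of all genes had NP above P and 0.495 to 1.33% P above NP. Rab20 and Rab40b were at 0 in 7 and Rab37 and Rab44 in 6 of 8 libraries, and rescaling gives every 0 of a library 1 common value, so the order of those libraries was set by the scaling. The median of the members minus that of all genes, −0.16 in the fit described, was −0.39 without P replicate 1, 0.00 without P replicate 2 and 0.03 without P replicate 3.

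Equal replicate numbers are not stated to mark 1 gradient, and deviations of equally numbered libraries correlated at 0.139, 0.0518, 0.251 and 0.155, and those of other numbers at −0.135 to 0.136. Each P library correlated highest with the equally numbered NP library, though for P replicate 1 only by 0.139 against 0.136. A replicate block left 1 gene called among all genes and 0 Rab members, and sign flips over the 4 pairs, too few to pass 0.05, called 0 paralogue ratios.

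Signs turned only in estimates that no test called. Rab3d was 0.12 with quantile normalization, 0.79 with median centring and 0.31 with voom, and median centring also gave 0.30 for Rab38 and 0.32 for Rab1b. With each library left out in turn, Rab3d ranged from −0.52 to 0.13, Rab1b from −1.18 to 0.078 (without P replicate 3), Rab27a from −0.75 (without P replicate 4) to 0.47, Rab2b from −0.069 (without P replicate 2) to 1.89 and Rab7 from −0.24 (without P replicate 4) to 0.55. Of the paralogue ratios, 1 pair passed an exact p under 0.05 with a pseudocount of 0.1, Rab2a to Rab2b (−3.30, exact permutation p 0.0286), and 0 to 1 with a library left out, the same pair without P replicate 1 (−3.79). That pseudocount turned the differences of Rab3b to Rab3d (0.012), Rab5a to Rab5c (−0.34), Rab5b to Rab5c (−0.71) and Rab22a to Rab31 (0.59). With a library left out, Rab3b to Rab3d ranged from −0.74 to 0.70, Rab4a to Rab4b from −0.12 to 0.54, Rab5a to Rab5b from −0.089 to 1.45, Rab5b to Rab5c from −0.59 to 1.41, Rab22a to Rab31 from −0.84 to 0.090 and Rab32 to Rab38 from −1.42 to 0.033. The cause was not tested.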
